A study of Homo sapiens with 8 samples.

Results

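The 42 genes described here belong to the cell's interferon response and to the presentation of antigens on class I molecules. They were taken by symbol from a named list that sets no threshold on a measured value, and all 42 were present among the 58735 genes of the deposited table. This list and the other lists used below were chosen with earlier results of these data known, so their called shares are descriptions only. By role they were 5 sensors of foreign RNA with their adaptor, 9 receptors and transcription factors of the signal, 18 antiviral effectors and 10 genes of the class I path. RNA was measured in 8 libraries of HepG2, an established human liver cancer line. Of these, 4 came from cells that a lentivirus made to overexpress DNMT3A, an enzyme that adds methyl groups to cytosine in unmethylated DNA, and 4 from control cells whose genotype is given as WT. The library names carry pLV, EGFP and either DN or NC in both groups, so the controls also bear a vector's name and no library is named as uninfected. The promoter that drives the transgene, and whether the cells were 1 clone or a pool, are points on which the labels are silent. Reads assigned to genes, as recovered from the deposited values, summed to 15911019 to 17677093 per library.

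Interferon signalling starts when a sensor binds foreign or misplaced RNA or DNA. RIG-I and MDA5 in the cytoplasm pass the signal through MAVS on mitochondria to the kinase TBK1 and the factor IRF3, which switches on type I and type III interferon genes. Secreted interferon binds its receptor, and a complex that includes STAT2 and IRF9 then binds a short DNA motif, the interferon-stimulated response element (ISRE), in front of the stimulated genes. Those genes encode proteins that block viral entry, translation or replication, and also the molecules that cut peptides, move them into the endoplasmic reticulum and display them on MHC class I. Loss of DNA methylation is known to wake endogenous retroviruses whose RNA the same sensors detect.

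Levels are given as FPKM, fragment counts divided by gene length and library size, which sets genes of different length on 1 scale. Differences are DNMT3A minus control on the scale log2(FPKM + 1), which understates the change of low genes, and n = 4 per group throughout. A gene is said to have risen or fallen where limma's adjusted p (Benjamini-Hochberg, over all 11620 genes with a mean of at least 1 FPKM) was under 0.05. The labels do not say that libraries of a group came from separate cultures or infections, so a p-value reflects how these libraries vary, and part of that variation could be technical.

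DNMT3A itself was at 9.75, 10.2, 8.51 and 7.26 FPKM in the DNMT3A libraries and at 3.62, 3.89, 3.45 and 3.64 FPKM in the controls. Every DNMT3A library stood above every control (difference 1.09, limma adjusted p = 0.000122). The exact permutation test of the 70 possible assignments (two-sided) gave p = 0.0286, the lowest it can reach. Of all genes tested, 9.93% rose and 10.6% fell, and 20.6% did either. Of the 42 members, 30 reached the level for testing, and of these 1 rose (MAVS), 6 fell (IFIH1, IFITM2, IFITM3, HLA-B, B2M and TAPBP) and 23 did not pass. The 7 calls are 23.3% of the members tested, near the share over all genes. Their median difference was 0.01, against -0.01 over all genes tested, with 16 members above 0 and 14 below. The groups did not overlap for 8 members (MAVS and IRF3 higher, the 6 that fell lower), while 12.1% of all genes were higher without overlap and 13% lower, 25.1% in all. The members' median absolute difference was 0.08, against 0.14 over all genes. In bulk RNA, fewer cells that express a gene and less RNA per cell cannot be told apart.

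**Figure D1:**
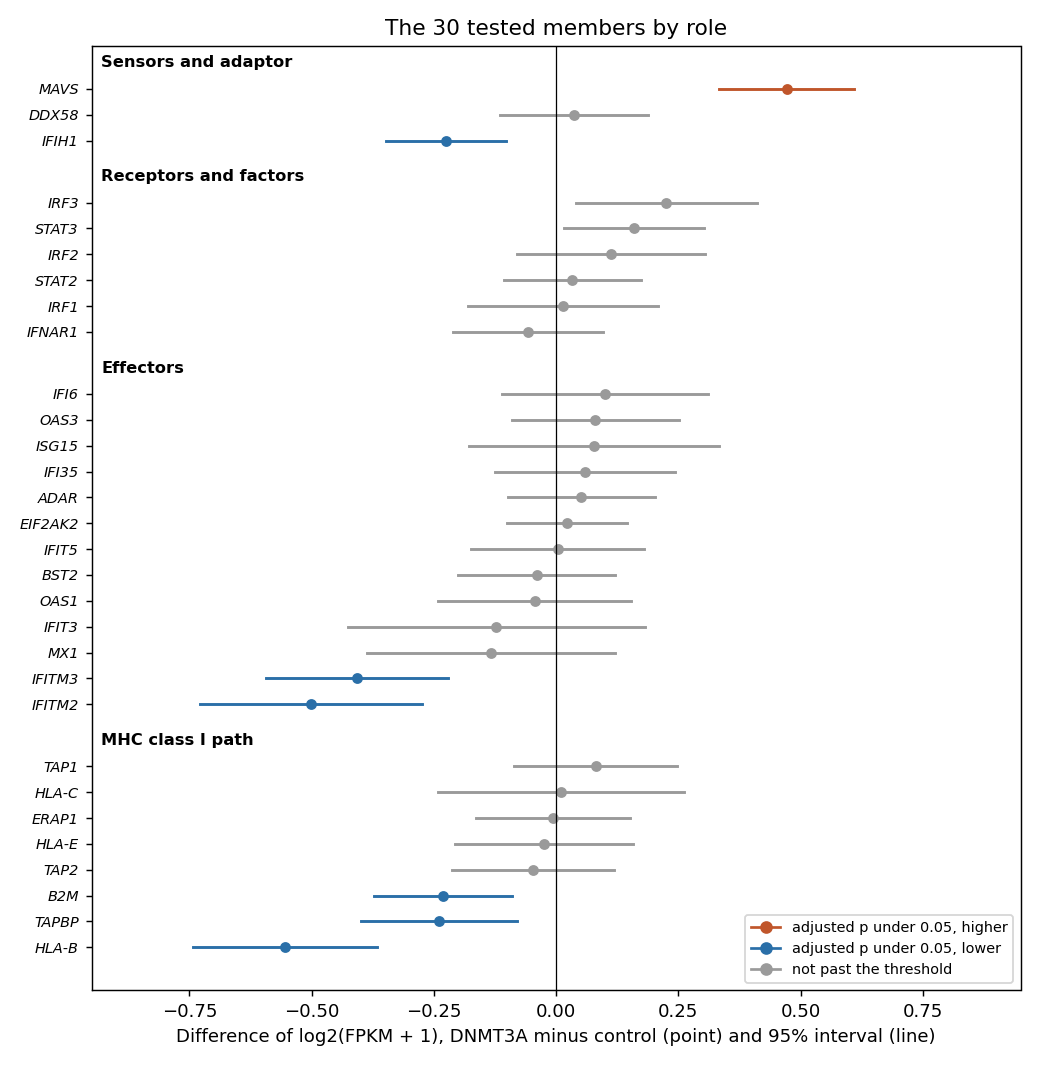
Difference in log2(FPKM + 1), DNMT3A minus control, for the 30 tested members (points, with limma's 95% intervals as lines), grouped by role and coloured by whether limma's adjusted p was under 0.05. MAVS lies alone to the right at 0.47, while HLA-B (-0.55), IFITM2 (-0.50) and IFITM3 (-0.41) lie farthest to the left.

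Promoters are shown because DNMT3A acts on DNA and because the ISRE is the feature through which most of these genes are known to be induced. RefSeq promoter windows (GRCh38.p14, 250 bases before and 50 after each start) matched 33 of the 42 members. Shown here, 5′ to 3′ on the gene's strand and with motif matches in capitals, are MAVS, the member that rose, 3 members that fell (IFIH1, B2M and IFITM3), and ISG15, a much-used reporter of the interferon response that did not pass. The bases are those before the start that no annotated exon of the gene covers. For IFITM3, where an exon covers the motifs, the stretch from the first to the last motif is given. The positions are chr20:3846584-3846798 (plus strand) for MAVS, chr2:162318704-162318934 (minus strand) for IFIH1, chr15:44711267-44711486 (plus strand) for B2M, chr11:320886-320912 (minus strand) for IFITM3 and chr1:1013247-1013422 (plus strand) for ISG15.
MAVS: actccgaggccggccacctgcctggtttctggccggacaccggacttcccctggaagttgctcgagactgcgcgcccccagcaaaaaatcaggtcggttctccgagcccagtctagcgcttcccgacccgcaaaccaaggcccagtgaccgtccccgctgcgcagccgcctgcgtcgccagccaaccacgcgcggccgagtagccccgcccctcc
IFIH1: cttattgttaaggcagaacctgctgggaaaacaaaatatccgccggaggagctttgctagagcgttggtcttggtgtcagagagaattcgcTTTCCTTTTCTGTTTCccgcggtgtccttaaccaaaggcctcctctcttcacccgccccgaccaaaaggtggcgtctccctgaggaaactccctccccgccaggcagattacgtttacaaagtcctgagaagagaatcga
B2M: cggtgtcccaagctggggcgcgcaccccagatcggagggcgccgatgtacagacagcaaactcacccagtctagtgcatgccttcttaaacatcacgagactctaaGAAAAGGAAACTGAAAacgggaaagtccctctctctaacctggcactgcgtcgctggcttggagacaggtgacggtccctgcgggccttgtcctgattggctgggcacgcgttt
IFITM3: GAAAAGGAAActgttgaGAAACCGAAA
ISG15: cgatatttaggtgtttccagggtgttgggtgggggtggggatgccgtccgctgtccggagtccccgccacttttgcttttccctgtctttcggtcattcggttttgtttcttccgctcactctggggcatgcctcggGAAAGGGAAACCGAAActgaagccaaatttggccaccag

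The motif searched was the ISRE core, GAAA followed by any 2 bases and GAAA again, on both strands, with overlapping matches counted apart. The MAVS window held no match and 34 CpG, the dinucleotide that DNMT3A methylates. IFIH1 had 3 ISRE matches in its full window, a pair of them overlapping and read on the opposite strand in the stretch above. B2M and ISG15 each had 2 overlapping matches, and IFITM3 had 2 that stood apart. Among the 33 matched members 21 (63.6%) held at least 1 ISRE core, against 2.60% of the 8258 matched promoters of genes tested and 3.65% of all 27305 promoters of the table. Of the 26 matched members that were tested, 15 held one. The motif GAS (TTCNNNGAA, the same on both strands), an element of the interferon gamma response, lay in 8 of the 33 (24.2%). Its share was 6.12% over promoters of genes tested and 7.88% over all promoters of the table. Of those 8 members, 4 were tested and did not pass, and 4 were below the test level.

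By outcome of the test, ISRE cores were present in 4 of the 5 matched promoters of genes that fell (IFIH1, IFITM3, B2M and TAPBP, but not HLA-B), in 0 of 1 that rose, and in 11 of 20 that were tested and did not pass. Of the 7 matched members below the test level, 6 held one. The members' windows had a median of 17 CpG, against 27 for genes tested and 14 for all promoters of the table, and ran from 1 in OAS1 to 36 in IRF1. A match to these letters is a description of the window and no proof of binding, and DNA methylation itself was not analysed here.

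Among the sensors, MAVS, the mitochondrial adaptor of RIG-I and MDA5, was the only member tested that rose. It was at 23.8, 23.6, 22.0 and 20.3 FPKM in the DNMT3A libraries and at 16.0, 15.2, 16.0 and 16.4 FPKM in the controls. The groups did not overlap, and the lowest DNMT3A library stood well above the highest control. Its mean was 22.4 ± 1.63 FPKM with DNMT3A, 1.41 times the 15.9 ± 0.508 FPKM of the controls (SD, n = 4 each, difference 0.47, SE 0.06, limma adjusted p = 0.00112). The gene (ENSG00000088888, hg38 chromosome 20, 3846799 to 3876123, plus strand) shares no exonic base with another gene. Of the 10 tested neighbours that start within 250 kb, 1 rose and 0 fell.

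IFIH1, which encodes MDA5, the sensor of long double-stranded RNA, moved the other way. It was at 5.25, 4.99, 4.93 and 5.46 FPKM with DNMT3A and at 5.90, 6.24, 6.52 and 6.12 FPKM in the controls, so that the groups did not overlap. The means were 5.16 ± 0.241 FPKM with DNMT3A and 6.19 ± 0.258 FPKM in the controls (difference -0.22, SE 0.05, limma adjusted p = 0.0189). The call was lost without control library 2 (adjusted p = 0.0519), control library 3 (0.0650) or DNMT3A library 3 (0.0612). It was also lost with the replicate number as a block (limma adjusted p = 0.0639). DDX58, which encodes RIG-I, the sensor of short RNA with a 5′ triphosphate, did not pass, with 3.47 ± 0.259 FPKM with DNMT3A and 3.36 ± 0.229 FPKM in the controls. Its difference of 0.04 had a 95% interval of -0.11 to 0.19. The remaining pair of sensors, DHX58 (LGP2, a regulator of RIG-I and MDA5) and TLR3 (the endosomal receptor of double-stranded RNA), had means under 1 FPKM and are given with the other low members.

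**Figure D2:**
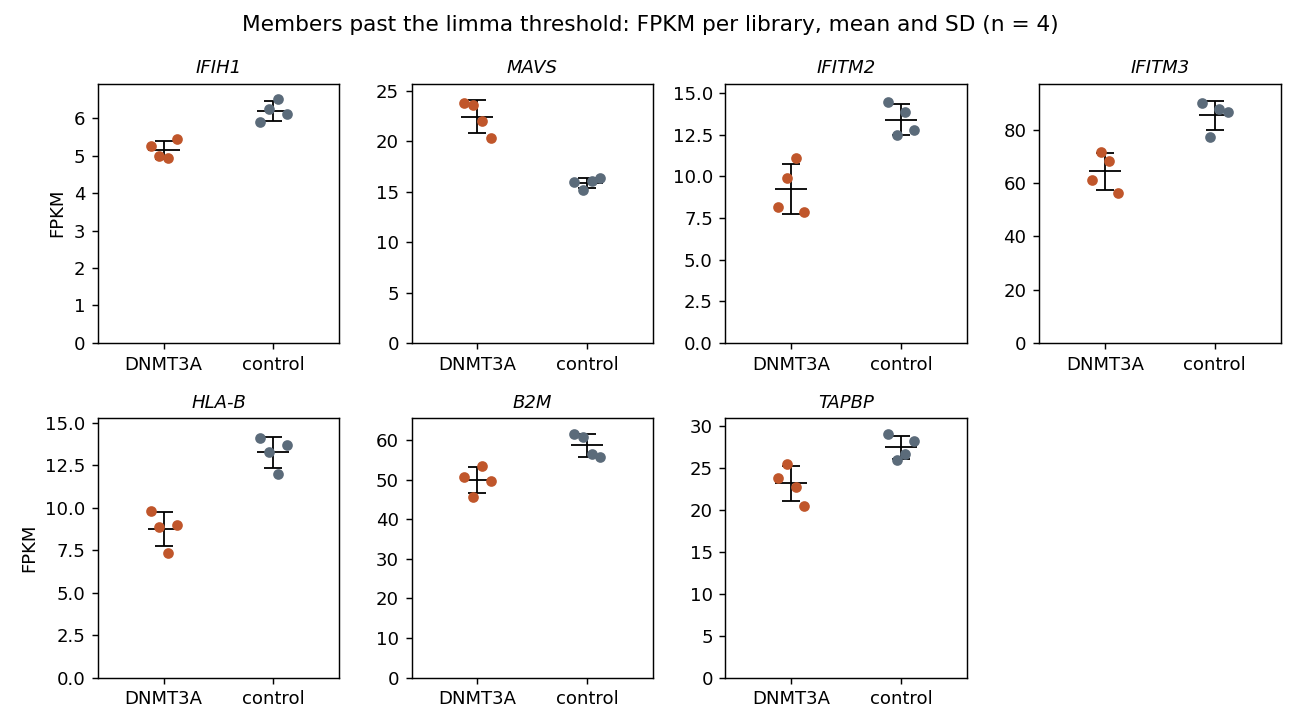
FPKM of the 7 members that passed limma's threshold, one panel per gene, with each DNMT3A library and each control library as a point and the mean ± SD as a bar (n = 4 each). In every panel the DNMT3A points and the control points are apart, with MAVS higher in the DNMT3A libraries and the other 6 lower, and the gap is narrow for TAPBP, where the highest DNMT3A library had 25.4 FPKM and the lowest control 25.9 FPKM.

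No receptor or transcription factor passed the test, while 20.6% of all genes tested did. Of 9 members in this role 6 were tested, with a median difference of 0.07. IRF3, the factor that TBK1 activates, came nearest, at 8.65, 10.6, 8.83 and 8.57 FPKM with DNMT3A and 8.19, 7.26, 6.86 and 8.40 FPKM in the controls. Its groups did not overlap, and DNMT3A library 2 was high (difference 0.23, limma adjusted p = 0.0827, and 0.0314 with array weights). It shares 19.3% of its exonic bases with BCL2L12 on the other strand, and without strand their reads cannot be told apart. STAT3, the factor downstream of interleukin 6, was at 18.3, 18.8, 17.6 and 16.2 FPKM with DNMT3A and 16.4, 14.6, 15.4 and 16.7 FPKM in the controls. The groups overlapped at 1 library (difference 0.16, limma adjusted p = 0.108, and 0.0334 with array weights). The fit with array weights called more genes in all, 32.3% of those tested against 20.6% in the main fit.

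The rest of the signalling chain differed by less than the spread between libraries could resolve. IFNAR1, a chain of the type I interferon receptor, was at 11.3 ± 1.03 FPKM with DNMT3A and 11.8 ± 0.394 FPKM in the controls (difference -0.06, interval -0.21 to 0.10). STAT2, a subunit of the complex that binds the ISRE, was at 5.76 ± 0.412 FPKM with DNMT3A and 5.60 ± 0.302 FPKM in the controls (difference 0.03, interval -0.11 to 0.17). IRF1, an activator, differed by 0.01 (interval -0.18 to 0.21) and IRF2, which competes with it for the same sites, by 0.11 (interval -0.08 to 0.30). Other annotated genes share 22.0% of the exonic bases of IRF1.

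Among the 18 antiviral effectors 13 were tested, and 0 rose and 2 fell (15.4%, beside 20.6% over all genes tested). The median difference was 0.00. The 2 that fell are the neighbouring genes IFITM3 and IFITM2 on chromosome 11, whose membrane proteins hinder viruses that enter by fusion in endosomes. IFITM3, the member with the highest mean level (74.9 FPKM), was at 61.2, 71.5, 68.3 and 56.3 FPKM with DNMT3A and at 90.0, 77.4, 87.6 and 86.6 FPKM in the controls. The groups were apart, with control library 2 the lowest of its group. The means were 64.3 ± 6.85 FPKM with DNMT3A and 85.4 ± 5.52 FPKM in the controls (difference -0.41, SE 0.08, limma adjusted p = 0.00882). IFITM3 shares 21.3% of its exonic bases with the long non-coding gene AC136475.5 on the other strand.

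IFITM2 was at 8.13, 9.91, 11.1 and 7.85 FPKM with DNMT3A and at 14.5, 12.5, 13.8 and 12.8 FPKM in the controls. Every DNMT3A library stood below every control (difference -0.50, SE 0.10, limma adjusted p = 0.00850). The genes of this family are similar in sequence, and the annotations of IFITM2 and IFITM1 overlap over 22.7% of the exonic bases of IFITM2 and 32.5% of those of IFITM1, so reads may be split between them. IFITM1, which acts mainly at the cell surface, was given only 3, 1, 8 and 1 reads with DNMT3A and 7, 10, 7 and 8 reads in the controls. Reads of both genes summed to 1022 with DNMT3A and 1405 in the controls. Of the 13 tested genes that start within 250 kb of IFITM2 5 fell and 0 rose (median -0.13), while 10.6% of all genes tested fell. Of the 15 within 250 kb of IFITM3 5 fell and 1 rose (median 0.00). The windows overlap and hold the same genes that fell, except that each counts the other IFITM gene. The 5 near IFITM2, named after their values were seen, are IFITM3, the adhesion gene PKP3 (-0.51), the glycosyltransferase B4GALNT4 (-0.45), the ion-channel family gene ANO9 (-0.62) and AC136475.7 (-0.84).

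Of the effectors tested, ISG15, BST2, IFI6 and IFI35 did not pass, while IFIT1, IFIT2 and IFI27 were too low to be tested. ISG15, a ubiquitin-like modifier, was at 27.03, 30.005, 28.80 and 22.8 FPKM with DNMT3A and 28.4, 29.3, 24.4 and 21.0 FPKM in the controls. The groups overlapped over most of their range (difference 0.08, interval -0.18 to 0.33). BST2 (tetherin, which holds budding virus at the membrane) was at 52.2 ± 4.799 FPKM with DNMT3A and 53.6 ± 2.52 FPKM in the controls, a difference of -0.04 with an interval of -0.20 to 0.12. IFI6, a small organelle-membrane protein, differed by 0.10 (interval -0.11 to 0.31). IFI35, a partner of NMI, differed by 0.06 (interval -0.12 to 0.24).

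Effectors that act on double-stranded RNA showed small differences and did not pass. ADAR, which edits adenosine in such RNA, was at 28.6 ± 2.42 FPKM with DNMT3A and 27.5 ± 1.11 FPKM in the controls (difference 0.05, interval -0.10 to 0.20). EIF2AK2 (PKR, which halts translation) was at 9.36 ± 0.543 FPKM with DNMT3A and 9.20 ± 0.245 FPKM in the controls (difference 0.02, interval -0.10 to 0.15). The synthetases that activate RNase L differed by 0.08 (OAS3, interval -0.09 to 0.25) and -0.04 (OAS1, interval -0.24 to 0.15). IFIT5, which binds the 5′ end of foreign RNA, differed by 0.00 (interval -0.17 to 0.18). The low genes MX1, a dynamin-like GTPase, and IFIT3, a scaffold of the IFIT complex, had wider intervals, of -0.39 to 0.12 around -0.13 and of -0.43 to 0.18 around -0.12.

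Of the 10 genes of the class I path 8 were tested, 0 rose and 3 fell (HLA-B, B2M and TAPBP). The 3 calls are 37.5% of the 8, beside 20.6% over all genes tested, and the median difference was -0.04. HLA-B, a classical heavy chain that presents peptides to T cells, was at 9.80, 8.88, 7.35 and 9.002 FPKM with DNMT3A and at 14.14, 13.31, 12.01 and 13.69 FPKM in the controls. The groups were well apart, and control library 3 and DNMT3A library 3 were the lowest of their groups. The means were 8.76 ± 1.02 FPKM with DNMT3A and 13.3 ± 0.915 FPKM in the controls (difference -0.55, SE 0.08, limma adjusted p = 0.00240). This was the farthest below 0 of the 30 members tested.

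The HLA-B value is uncertain as a gene level, since class I heavy chains are near-identical over long stretches and the annotation of HLA-B reaches over HLA-C, with 18.9% of its exonic bases shared. HLA-C, the neighbouring heavy chain, was at 44.1, 44.0, 43.1 and 32.3 FPKM with DNMT3A and 44.3, 35.7, 37.5 and 44.2 FPKM in the controls, with overlapping groups (difference 0.01, interval -0.24 to 0.26). Reads of both genes, not scaled for depth, summed to 2452, 2516, 2270 and 1907 with DNMT3A and to 2456, 2241, 2068 and 2686 in the controls. The sums of the groups overlapped, but HLA-C gave 7254 of 9145 reads with DNMT3A and 6750 of 9451 in the controls. Since HLA-C makes up most of the sum, the overlap cannot show whether HLA-B itself fell. HLA-E, the chain read by natural killer cells, differed by -0.02 (interval -0.21 to 0.16). Of the 8 tested neighbours of HLA-B within 250 kb, 4 rose and 0 fell, while 9.93% of all genes tested rose. Among the 4 are MICA (0.43) and MICB (0.53), stress-induced ligands of natural killer cells, named after their values were seen.

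B2M, the light chain shared by all class I molecules, was at 50.7, 45.6, 53.5 and 49.7 FPKM with DNMT3A and at 61.5, 60.8, 56.5 and 55.8 FPKM in the controls. The groups did not overlap, at means of 49.9 ± 3.24 FPKM with DNMT3A and 58.7 ± 2.92 FPKM in the controls (difference -0.23, SE 0.06, limma adjusted p = 0.0300). The call was lost with no filter on low genes (0.0621), with quantile normalization (0.0980), and in 4 of the fits that leave out a library (controls 1, 2 and 3 and DNMT3A 1, 0.0570 to 0.0817). With the replicate number as a block it was lost as well (limma adjusted p = 0.0714). TAPBP (tapasin), which bridges empty class I molecules to the peptide transporter, was at 23.8, 25.4, 22.7 and 20.5 FPKM with DNMT3A and at 28.96, 25.85, 26.59 and 28.15 FPKM in the controls. The groups came close at DNMT3A library 2 and control library 2 but did not overlap (difference -0.24, SE 0.07, limma adjusted p = 0.0414). The TAPBP call was lost with no filter (0.0966), with quantile normalization (0.0516), with no intensity trend (0.0507), and without any 1 control library or DNMT3A library 1, 3 or 4 (0.0577 to 0.102). The replicate block lost it too (limma adjusted p = 0.0820).

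The peptide transporter itself did not pass. TAP1 was at 9.14 ± 0.885 FPKM with DNMT3A and 8.57 ± 0.523 FPKM in the controls (difference 0.08, interval -0.09 to 0.25), and TAP2, its partner, differed by -0.05 (interval -0.21 to 0.12). Another annotated gene shares 32.3% of the exonic bases of TAP2. ERAP1, which trims peptides in the endoplasmic reticulum, was at 5.79 ± 0.401 FPKM with DNMT3A and 5.82 ± 0.489 FPKM in the controls, a difference of -0.01.

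The members that fell with the smallest margins move the list's count: without control library 2 or without control library 3, 3 members fell (HLA-B, IFITM2 and IFITM3) in place of 6, while the total of called genes went to 1551 without control library 2 and to 1508 without control library 3, against 2389 with all 8 libraries. MAVS, IFITM2, IFITM3 and HLA-B kept their call in every alternative run.

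The 12 members below a mean of 1 FPKM ran from 0.0371 FPKM (IFI27) to 0.843 FPKM (DHX58). They are DHX58, TLR3, IFNAR2, IRF7, IRF9, IFI27, IFIT1, IFIT2, IFITM1, ISG20, HLA-F and NLRC5. A fit with no filter on low values took in 30436 genes and called 5.24% of them (2.66% as higher), and of the 12 low members it called IRF9. IFIT1, which binds capped RNA that lacks ribose methylation, was at 0.712 ± 0.163 FPKM with DNMT3A and 0.451 ± 0.128 FPKM in the controls, and did not pass (limma adjusted p = 0.257 without a filter). TLR3 was at 0.0968 ± 0.0332 FPKM with DNMT3A and 0.157 ± 0.0280 FPKM in the controls (limma adjusted p = 0.247 without a filter). NLRC5, the activator of class I genes, was at 0.796 ± 0.0722 FPKM with DNMT3A and 0.755 ± 0.0608 FPKM in the controls. IRF7, the factor that amplifies the interferon loop, was at 0.113 ± 0.0576 FPKM with DNMT3A and 0.0402 ± 0.0409 FPKM in the controls, and reached 0 in 1 control. IFNAR2, the other chain of the type I receptor, shares 83.2% of its exonic bases with other annotated genes, so its low value is uncertain.

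**Figure D3:**
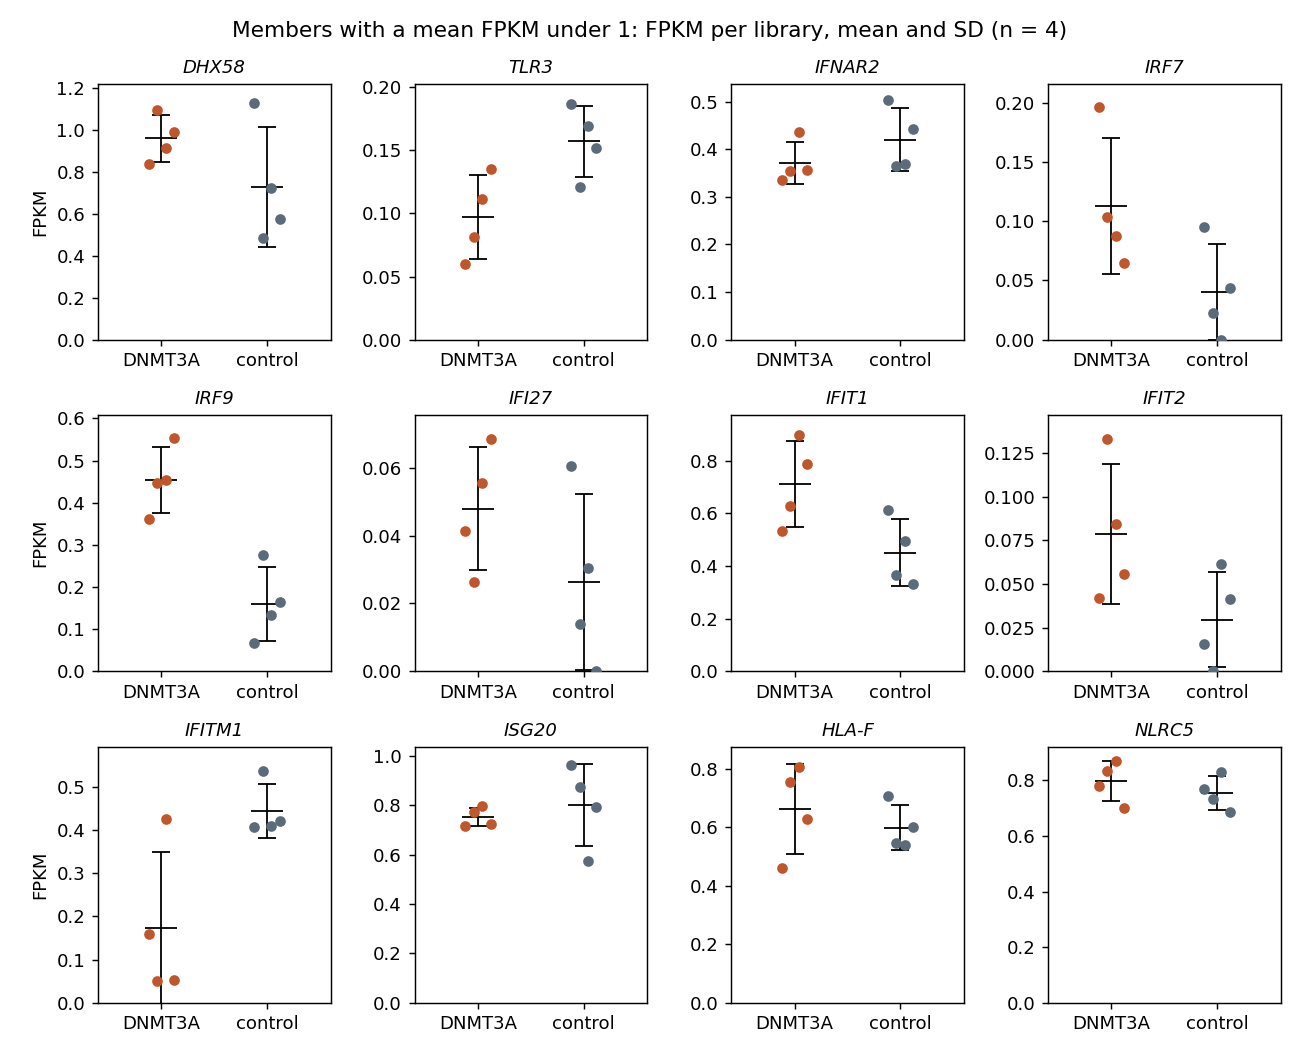
FPKM of the 12 members with a mean under 1 FPKM, one panel per gene, with each DNMT3A library and each control library as a point and the mean ± SD as a bar (n = 4 each, bars cut off at 0). IRF9 is the panel in which all DNMT3A libraries (0.362 to 0.555 FPKM) lie above all controls (0.0662 to 0.276 FPKM), and in the other 11 panels the groups overlap.

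IRF9, the DNA-binding subunit of the complex that forms with STAT2 after type I interferon, was counted at 24, 31, 30 and 37 reads with DNMT3A and at 4, 18, 8 and 11 reads in the controls. All DNMT3A libraries were above all controls, at 0.455 ± 0.0787 FPKM with DNMT3A and 0.160 ± 0.0874 FPKM in the controls (difference 0.33, SE 0.07, limma adjusted p = 0.0381 in the fit with no filter). That call was lost with a pseudocount of 0.1 (0.0788) and without any 1 library except control library 2 (0.0566 to 0.107). The gene shares 48.4% of its exonic bases with AL136295.5 on the same strand, which itself had 77 reads with DNMT3A and 32 in the controls.

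IRF9 lies on chromosome 14 (24161053 to 24166565, plus strand) in a stretch where most genes tested were higher with DNMT3A. Of the 16 tested genes that start within 100 kb of it, 13 rose and 0 fell, and their median difference was 0.51. Between 20 and 45 Mb of the chromosome, bounds chosen with earlier results of these data known, 88 of 114 tested genes rose (77.2%) and 0 fell, and the median was 0.49. The difference of IRF9, 0.33, is below that median on this scale, which understates low genes. It was 1.14 with a pseudocount of 0.1 and no filter, but the median was not computed with that pseudocount. The part of the regional shift in its value was not tested.

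**Figure D4:**
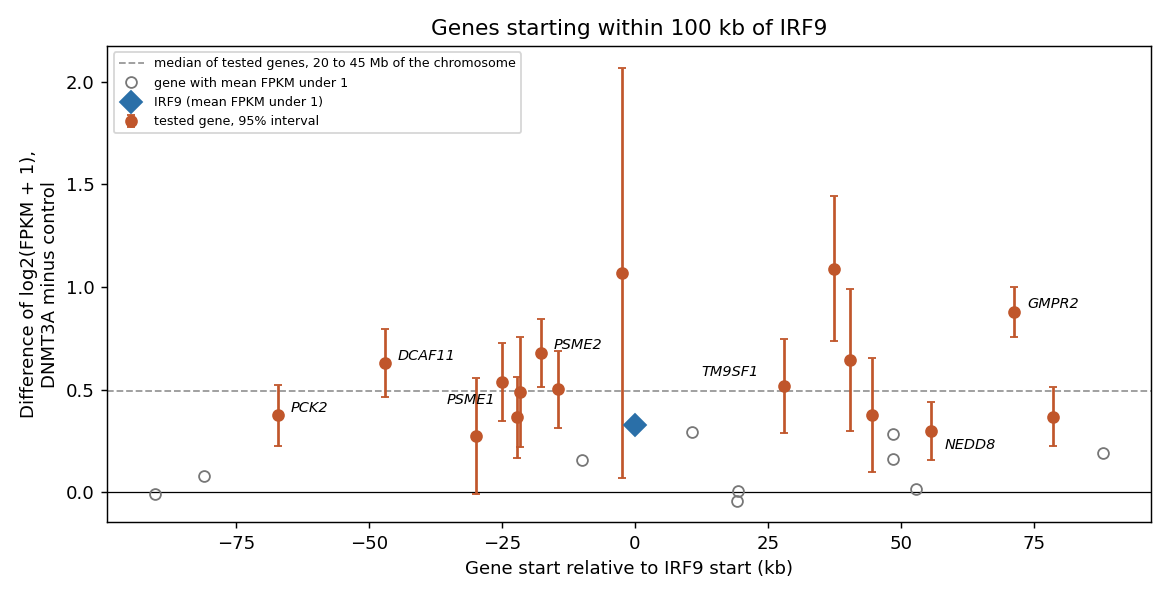
Difference in log2(FPKM + 1), DNMT3A minus control, of genes that start within 100 kb of IRF9, by distance of their start from that of IRF9 in kb. Filled points are tested genes with limma's 95% interval, open points genes with a mean under 1 FPKM, the diamond is IRF9 at 0.33, and the dashed line is the median of 0.49 for the tested genes between 20 and 45 Mb; all tested genes lie above 0.

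The same stretch holds PSME1 and PSME2, the subunits of the interferon-inducible PA28 activator, which opens the proteasome and shapes the peptides that reach class I. PSME1 was at 138, 137, 163 and 173 FPKM with DNMT3A and at 104, 109, 106 and 98.6 FPKM in the controls. PSME2 was at 45.6, 52.8, 53.6 and 57.2 FPKM with DNMT3A and at 31.6, 34.7, 31.7 and 30.9 FPKM in the controls. For both genes the groups were well apart (differences 0.54 with limma adjusted p = 0.00290, and 0.68 with limma adjusted p = 0.000460). Their starts lie 24.9 kb (PSME1) and 17.7 kb (PSME2) before that of IRF9, and GMPR2 (0.88) and DCAF11 (0.63), neighbours named after their values were seen that are in no interferon list used here, rose as well.

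Other genes of the pathways, from lists of 31 sensing and signalling genes, 56 further interferon-stimulated genes and 28 further genes of antigen processing, had called shares of 15.2% to 20%, beside 20.6% over all genes tested. In the signalling list 3 of 20 tested genes rose and 1 fell (20%, median difference -0.01). TBK1, the kinase downstream of MAVS, rose to 9.70 ± 0.961 FPKM, against 7.50 ± 0.365 FPKM in the controls (0.33, limma adjusted p = 0.0116). IFNLR1, the specific chain of the type III interferon receptor, rose by 0.37 (limma adjusted p = 0.00471), and ZCCHC3, a cofactor of the RNA and DNA sensors, by 0.21 (limma adjusted p = 0.0162). IFNGR1, the ligand-binding chain of the interferon gamma receptor, fell to 35.3 ± 3.12 FPKM, against 46.1 ± 3.69 FPKM in the controls (-0.37, limma adjusted p = 0.00993).

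The phosphatase PTPN11 and the RNA-binding protein PCBP2, abundant genes of that list that did not pass, differed by -0.03 and -0.09. The interferon genes IFNB1, IFNL1, IFNL2 and IFNL3, named after their values were seen, were listed at 0 in all 8 libraries. A 0 in this table need not mean that RNA was absent, and RNF135, a cofactor of RIG-I also named after its values were seen, was listed at 0 as well.

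In the list of further stimulated genes 1 of 33 tested rose and 4 fell (15.2%, median -0.03). NMI, a partner of STAT proteins, was at 1.32, 1.59, 1.22 and 1.39 FPKM with DNMT3A and at 3.32, 3.96, 3.38 and 2.60 FPKM in the controls, with no overlap (difference -0.85, limma adjusted p = 0.000747). APOL1, a secreted trypanosome-lytic factor, was at 2.60 ± 0.281 FPKM with DNMT3A and 4.74 ± 0.479 FPKM in the controls (-0.67, limma adjusted p = 0.000838). TRIM14, a mitochondrial partner of MAVS, fell by 0.33 (limma adjusted p = 0.0117), as did SHISA5 (limma adjusted p = 0.0239), whose call was lost with no filter (0.0739) and in fits that leave out control 1, control 3 or DNMT3A 3 (0.0576 to 0.0644). TRIM26 rose by 0.25 (limma adjusted p = 0.0482), a call lost in most alternatives, among them no filter (0.119) and without any 1 control library (0.0608 to 0.123) or without DNMT3A library 1, 2 or 3 (0.0612 to 0.0917). The abundant genes LGALS3BP (-0.12), CNP (-0.09) and LAP3 (-0.06) did not pass.

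In the antigen processing list 3 of 21 tested genes rose and 1 fell (19%, median -0.05). Besides PSME1 and PSME2, SUSD6, a negative regulator of surface class I, rose to 5.69 ± 0.229 FPKM, against 4.26 ± 0.550 FPKM in the controls (0.35, limma adjusted p = 0.0133). RFXAP, a subunit of the factor that binds MHC promoters, fell by 0.35 (limma adjusted p = 0.0417), with the call lost with no filter (0.128) and without any 1 control library or DNMT3A library 1 or 3 (0.0750 to 0.0956). The chaperones of the peptide-loading step CALR (0.06), CANX (-0.05) and PDIA3 (0.10) did not pass.

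Among 20 tested genes that silence repeats or clear nucleic acid, 1 rose, DNMT3A itself, and 2 fell (15%, median -0.04). RNASEH2B, a subunit of the enzyme that removes ribonucleotides from DNA, was at 0.930 ± 0.0933 FPKM with DNMT3A and 1.42 ± 0.0825 FPKM in the controls (-0.33, limma adjusted p = 0.0177, and 0.0576 without control library 3). CBX5, the heterochromatin protein HP1 alpha, fell by 0.32 (limma adjusted p = 0.0249), with the call lost with no filter (0.0764) and in fits that leave out control 2, 3 or 4 or DNMT3A 3 (0.0541 to 0.0717). With the replicate number as a block the CBX5 call was lost as well (limma adjusted p = 0.0580). TRIM28, the corepressor that silences endogenous retroviruses, was at 93.8 ± 6.25 FPKM with DNMT3A and 100.3 ± 3.61 FPKM in the controls (-0.10), and KDM1A (0.01) and UHRF1 (-0.02) did not pass either. RFXAP and RNASEH2B lie on chromosome 13, where of 199 genes tested 66 were called lower and 9 higher (median -0.15), and the part of that shift in their values was not tested.

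**Figure D5:**
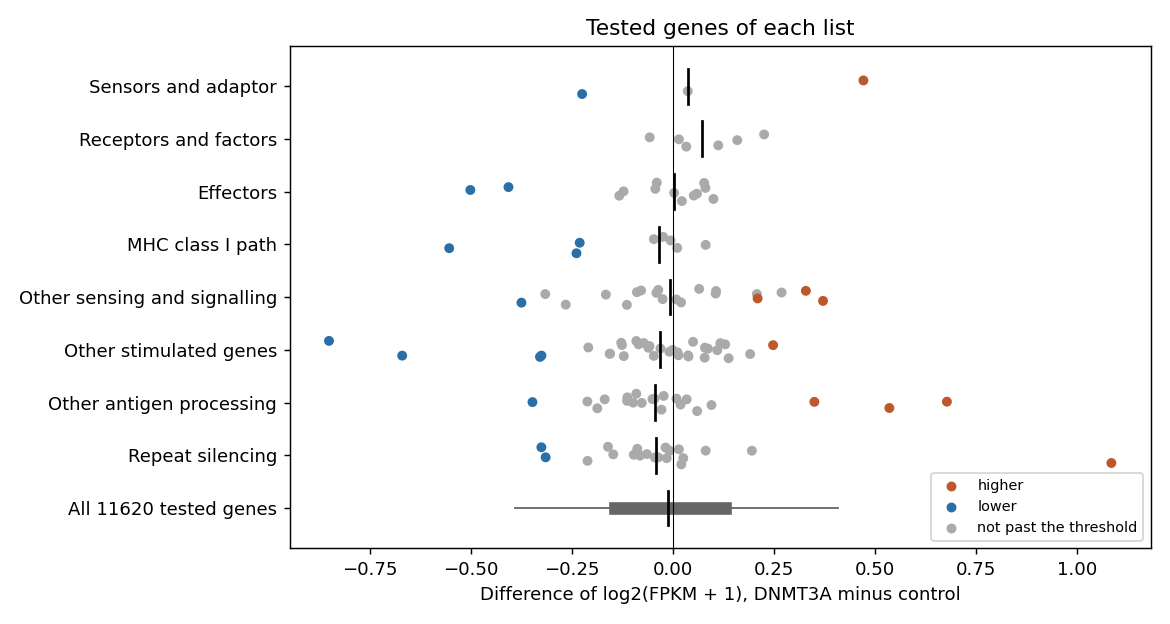
Difference in log2(FPKM + 1), DNMT3A minus control, of the tested genes of the 4 member roles and of the other lists (points coloured by limma's call, list medians as black lines), above the 5th to 95th percentile (thin line, -0.39 to 0.41), quartiles (thick line, -0.14 to 0.13) and median of all 11620 tested genes. List medians lie between -0.05 and 0.07, and the point at 1.09 in the repeat-silencing row is DNMT3A.

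The cells carried the markers of their label. All 10 hepatocyte markers had a mean of at least 1 FPKM, with summed levels of 9051 to 11660 FPKM in the DNMT3A libraries and 9796 to 10576 FPKM in the controls. Within that sum the fibrinogen chain FGB (1.61, limma adjusted p = 5.07e-06) and the thyroxine carrier TTR (1.38, limma adjusted p = 8.71e-05) rose, and the transcription factor CEBPA fell (-0.96, limma adjusted p = 0.00199). Of 12 immune markers PTPRC, CD3E and HBB were listed at 0 in every library, and 1, the lysozyme gene LYZ, was above a mean of 1 FPKM. LYZ was higher with DNMT3A (0.48, limma adjusted p = 0.00812), while CD14, a monocyte receptor, was at 0.652 ± 0.0290 FPKM with DNMT3A and 1.34 ± 0.235 FPKM in the controls (-0.50, limma adjusted p = 0.0242 in the fit with no filter). The immune markers other than LYZ summed to 1.73 to 2.58 FPKM with DNMT3A and 2.23 to 3.23 FPKM in the controls. Of 11 stromal and endothelial markers 0 reached a mean of 1 FPKM, with sums of 1.07 to 1.37 FPKM with DNMT3A and 0.839 to 1.22 FPKM in the controls. The median deviation of the tested members from their control means was 0.01, -0.02, -0.01 and -0.07 in DNMT3A libraries 1 to 4 and 0.07, -0.04, -0.03 and 0.02 in control libraries 1 to 4, with no separation of the groups.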

How the data were processed

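Poly(A) RNA was sequenced from 4 DNMT3A and 4 control libraries of HepG2 cells. Per the submitters' processing notes, HISAT2 2.0.5 and hg38 were used. Which program counted the reads is not given in the sources used here. Per the file headers, the authors deposited FPKM, with a column for each library. The labels' protocol names no step that marks strand. FPKM times gene length gave whole multiples of 1 read for 100% of values (tolerance 0.01), from which reads were recovered. No libraries were duplicates: chi-square per degree of freedom of the recovered reads was 4.26 to 21.6 within groups and 18.2 to 31.5 between them.

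All 58735 genes had GENCODE 29 coordinates. The 11620 genes whose mean FPKM reached 1 were tested on log2(FPKM + 1) with limma 3.58.1 in R 4.3.3, with an intensity trend and Benjamini-Hochberg adjustment over all genes tested. The script was tested on simulated data. Promoters came from RefSeq. The members and lists were chosen with earlier results of these data known. All members could be named. Of the other lists up to 6 called genes with the largest difference and up to 3 not called with the highest means could be named, besides DNMT3A and the cell type markers. Some genes that this rule allows are not reported here. Alternatives were another pseudocount, other filters, quantile normalization, median-ratio scaling, array weights, no trend, voom on recovered reads, protein-coding genes alone, the replicate number as a block and leaving out each library. For IRF9, further fits with no filter were added after seeing the data.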

Additional observations from a re-analysis of the deposited data

Results flagged for a closer look

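Among 62 groups of 4 libraries (the 30 tested members and DNMT3A in both conditions) 3 held a library whose gap to its nearest neighbour exceeded Dixon's critical value at the 95% level, where chance gives about 1 in 20 groups. IRF3 was at 10.6 FPKM in DNMT3A library 2, against 8.57 to 8.83 FPKM in the other DNMT3A libraries. Without that library the IRF3 difference was 0.16 (limma adjusted p = 0.143). HLA-C was at 32.3 FPKM in DNMT3A library 4, against 43.1 to 44.1 FPKM in the others of its group, and without it the HLA-C difference was 0.12 (limma adjusted p = 0.344). OAS1 was at 1.66 FPKM in control library 1, against 1.34 to 1.38 FPKM in the other controls.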

How the results depend on the processing

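Of 1272 recomputed gene differences 58 lost a call, 3 gained one and 1211 stayed on their side of the threshold. No difference that passed changed sign, but 47 values of 18 genes that passed in neither setting did, all of them 0.08 or less in size. With no filter 2 members rose and 4 fell, and 786 of 30436 genes fell (2.58%). A filter at a mean of 5 FPKM left 6703 genes, of which 662 rose. It called 22.8% of them, against 20.6% in the main fit. With array weights 3 members rose, and 1825 genes rose and 1931 fell (32.3% of genes tested were called). Leaving out 1 library at a time gave 3 to 6 members that fell, 769 to 1195 genes that rose and 739 to 1248 that fell, and a member median of -0.02 to 0.03. DNMT3A passed in every alternative, with a difference of 1.02 to 1.29. Replicate numbers did not pair the libraries: deviations of same-numbered libraries correlated at 0.16, -0.08, -0.02 and 0.10. With the number as a block 3 members fell (HLA-B, IFITM2 and IFITM3), and 913 genes rose and 968 fell. The cause of these shifts was not tested. Depth limits low members such as IRF9, with 41 reads over the controls, and IRF7 and IFI27, with 7 each.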
